A study of Mus musculus with 6 samples.

Results

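The genes described here encode the machinery that removes introns from pre-mRNA and the proteins that steer it. They were taken by a rule on names that uses no measured value, though it was set with earlier results of these data known. It takes protein-coding genes whose GENCODE M21 symbol begins with Srsf, Hnrnp, Sf3a, Sf3b, Snrp, Prpf or Lsm, without Snrpn. A digit must follow Srsf, Prpf and Lsm. This gave 77 of the 52870 genes in the files, of which 21870 are protein-coding genes matched to that annotation. They fall into 11 genes of the SR class, 20 of the hnRNP class and 46 of a core snRNP class, which holds 9 Sf3a and Sf3b, 13 Prpf, 13 Lsm and 11 Snrp genes. Some of the 46 are not parts of spliceosomal particles: Lsm1 belongs to a cytoplasmic mRNA decay ring, Lsm10 and Lsm11 to the U7 snRNP of histone mRNA processing, and Lsm14a and Lsm14b to cytoplasmic P-bodies.

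RNA was profiled in mouse embryonic stem cells of strain C57BL/6 by Illumina TruSeq RNA sequencing of total RNA taken up in Trizol. The Rbbp4KO libraries have the genotype Rbbp4-/- (n = 3), and the others the genotype Rbbp4F/F (n = 3). The labels name no agent, time after deletion or Cre driver. They are also silent on separate cultures, clones or lines behind the replicates, so a p-value here reflects the spread of these libraries alone, and that spread may be technical. Rbbp4 encodes a histone-binding subunit of several chromatin complexes, among them PRC2, NuRD, Sin3 and the CAF-1 histone chaperone, and the comparison asks which transcripts differ in cells without it.

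Splicing takes place on small nuclear ribonucleoproteins (snRNPs), in which U-rich snRNAs carry a ring of Sm or LSm proteins and particle-specific proteins. U1 marks the 5′ splice site and U2 with its SF3a and SF3b complexes the branch site, after which the U4/U6.U5 tri-snRNP with many PRPF proteins joins and is remodelled. SR proteins bind exons and mostly promote the use of nearby splice sites, whereas hnRNP proteins often act as repressors. Many SR and hnRNP genes limit their own level through splicing of their own transcripts. In embryonic stem cells, alternative splicing of transcripts such as Foxp1 is known to bear on pluripotency.

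The values are FPKM, which scale the sequenced fragments of a gene by its transcript length and by the fragments of its library. Each library held an estimated 25600000 to 29000000 fragments. Rbbp4 itself had 21.3, 12.7 and 11.1 FPKM in the Rbbp4KO libraries and 58.5, 57.0 and 61.8 FPKM in the Rbbp4F/F libraries, and fell by 1.96 ± 0.22 on the log2 scale (SE, limma adjusted p = 0.000394). Antisense exons of Sync and Gm26722 cover 18% of it, and the sources used here do not say which exons were deleted. Of 8 embryonic stem cell marker genes 7 were lower in Rbbp4KO by limma and 0 higher, also at an unadjusted p under 0.05. Their median log2 fold change was −1.51, with summed levels of 1390.2 to 2175.5 FPKM in Rbbp4KO and 4705.3 to 4854.6 FPKM in Rbbp4F/F. Of 10 trophoblast marker genes 7 were higher and 0 lower, likewise. Their median log2 fold change was 0.93, with summed levels of 2265.3 to 4033.3 FPKM in Rbbp4KO and 175.7 to 250.3 FPKM in Rbbp4F/F. Sums follow the most abundant genes of a list, and the trophoblast sums differ by far more than that median. Of all genes tested 36.7% were higher and 22.5% lower. As a set, the markers of the labelled cell type were detected in both groups, at a lower summed level in Rbbp4KO. The sums do not show each marker by itself. The 9 fibroblast feeder markers summed to 10.2 to 11.1 FPKM in Rbbp4KO and 13.0 to 19.3 FPKM in Rbbp4F/F, with Thy1 alone above the filter and none listed at 0 in all libraries. In bulk RNA fewer cells of a type and less RNA per cell cannot be told apart, and the part of these marker shifts in the results below was not tested.

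All 77 genes were detected at 1 FPKM or more in all 6 libraries, so none was lost to the filter on low values. By limma on log2(FPKM + 1), with p-values adjusted over all 13579 genes tested, 21 of the 77 were higher in Rbbp4KO, 22 were lower and 34 were not called at an adjusted p of 0.05. Over all genes tested 36.7% were higher, 22.5% lower and 59.1% called in either direction, and among tested protein-coding genes with a mean of at least 10 FPKM, the range most of the 77 lie in, 37.4% were higher and 26.1% lower. The whole set, with 27.3% higher and 28.6% lower, lay below the share of all genes that were higher and somewhat above the share that were lower. Scaling moved members and all genes together. Under upper-quartile scaling 13 members (16.9%) were higher and 36 (46.8%) lower, against 25.5% and 32.5% of all genes, and under median-ratio scaling 17 (22.1%) and 32 (41.6%), against 28.4% and 29.5%. With equal FPKM sums 34 (44.2%) were higher and 16 (20.8%) lower, against 44.7% and 17.5% of all genes, and without the 20 most abundant genes in the totals 30 (39.0%) and 16 (20.8%), against 42.5% and 18.6%. Groups did not overlap, with every Rbbp4KO library above every Rbbp4F/F library, in 27 of the 77, against 41.3% of all genes tested, and in the opposite sense in 25, against 25.5%. The median log2 fold change was 0.04 in the 77 genes and 0.17 in all genes tested. That last value depends on how libraries are scaled: it was −0.005 with median-ratio scaling, −0.07 with upper-quartile scaling and 0.31 with equal FPKM sums, so changes are also given relative to it.

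Counts of called genes differed between the families. On the values as deposited, 36.7% of all genes tested were higher and 22.5% lower. By limma 8 of 11 Snrp genes were lower and 0 higher, also 0 at an unadjusted p under 0.05, and Srsf and Prpf genes were higher in 6 of 11 and 6 of 13 and lower in 1 each. The Lsm genes were lower in 6 of 13 and higher in 2, hnRNP genes were split 4 and 4 of 20, and Sf3a and Sf3b genes were higher in 3 and lower in 2 of 9. With upper-quartile scaling, where 25.5% of all genes were higher and 32.5% lower, the higher and lower counts were 0 and 10 for Snrp, 3 and 1 for Srsf, 6 and 5 for Prpf, 1 and 8 for Lsm, 2 and 9 for hnRNP, and 1 and 3 for Sf3a and Sf3b genes. With equal FPKM sums, where 44.7% of all genes were higher and 17.5% lower, they were 0 and 7 for Snrp, 9 and 0 for Srsf, 8 and 1 for Prpf, 4 and 4 for Lsm, 8 and 2 for hnRNP, and 5 and 2 for Sf3a and Sf3b genes. Relative to the median of all genes tested, the median log2 fold change was −0.69 for Snrp, −0.42 for Lsm, −0.12 for hnRNP, −0.05 for Sf3a and Sf3b, 0.23 for Srsf and 0.31 for Prpf genes. Each of these 6 medians kept its sign, relative to all genes, under the 4 other scalings tried. With no filter on low values the hnRNP median turned to 0.004 and the Sf3a and Sf3b median to 0.08. The differences between families were not tested.

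**Figure D1:**
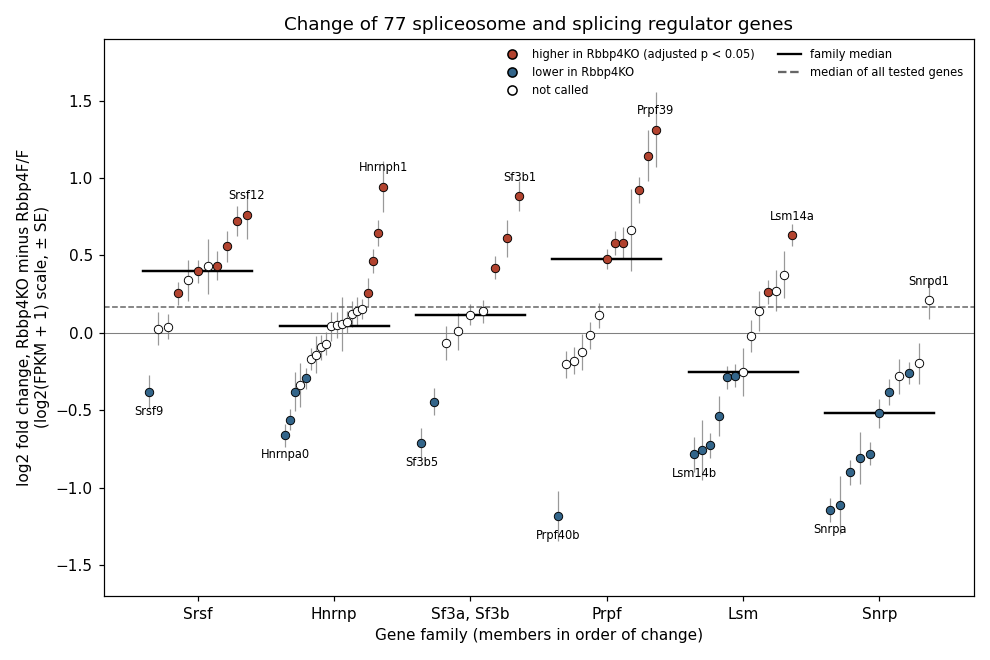
Log2 fold change, Rbbp4KO minus Rbbp4F/F on the log2(FPKM + 1) scale, of the 77 genes by family, with standard errors (3 libraries a group); red points were higher and blue points lower at an adjusted p under 0.05, open points were not called, solid lines are family medians and the dashed line is the median of all genes tested. The Snrp points lie mostly below 0, from −1.15 to 0.21, and the Srsf points mostly above it, from −0.38 to 0.76.

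In summed FPKM per library, the 11 SR genes reached 1416.8, 1404.6 and 1433.0 in Rbbp4KO and 1120.6, 1166.2 and 1135.7 in Rbbp4F/F. All Rbbp4KO libraries were above all Rbbp4F/F libraries, with a ratio of group means of 1.24. The 11 Snrp genes summed to 1538.6, 1436.0 and 1391.4 FPKM in Rbbp4KO and 2032.1, 2088.6 and 2029.0 FPKM in Rbbp4F/F, which lies apart in the opposite sense with a ratio of 0.71. The 46 genes of the core class summed to 4116.0 ± 207.5 FPKM in Rbbp4KO and 4715.3 ± 105.7 FPKM in Rbbp4F/F (SD, n = 3 each). The 20 hnRNP genes, the most abundant class, summed to 4793.9 ± 300.6 FPKM in Rbbp4KO and 5291.4 ± 198.6 FPKM in Rbbp4F/F (SD, n = 3 each), and here the groups overlapped. No test was made on sums. Total FPKM was also lower in Rbbp4KO, at 697933 to 737123 per library, against 790121 to 800146 in Rbbp4F/F. As a share of its library the core class was 0.5677% to 0.5904% in Rbbp4KO and 0.587% to 0.6045% in Rbbp4F/F, which overlap. The SR and Snrp shares did not overlap. Ratios of sums depend on scaling, as given in the closing section for the SR, hnRNP and core snRNP classes. The Snrp ratio is given for the values as deposited alone.

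Among the abundant SR genes the most strongly raised was Srsf1 (chromosome 11, 88047373 to 88053755, GRCm38), the prototype of the family, which binds purine-rich exonic enhancers. It had 168, 186 and 210.2 FPKM in Rbbp4KO and 111, 118 and 110.3 FPKM in Rbbp4F/F. The groups did not overlap, and the log2 fold change was 0.72 ± 0.10 (SE, limma adjusted p = 0.000775). Srsf12, a poorly expressed relative that antagonises other SR proteins, had 2.34, 2.72 and 3.29 FPKM in Rbbp4KO and 1.01, 1.46 and 1.2 FPKM in Rbbp4F/F. This was the largest log2 fold change of the class, 0.76 (limma adjusted p = 0.00511), at a level near the filter of 1 FPKM. Srsf11, an SR-related protein that interacts with the U2 auxiliary factor, had 79.8, 92.1 and 100.7 FPKM in Rbbp4KO and 57.6, 63.6 and 62.2 FPKM in Rbbp4F/F (0.56, limma adjusted p = 0.00307).

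Srsf2, known as SC35, was the most abundant SR gene, at 385, 343 and 340.4 FPKM in Rbbp4KO and 299, 300.4 and 293 FPKM in Rbbp4F/F. Its log2 fold change of 0.26 (limma adjusted p = 0.0213) lay close to that of all genes and turned to −0.01 with upper-quartile scaling; the call was lost without any of the 3 Rbbp4F/F libraries, at adjusted p of 0.063 to 0.0727. Srsf3 averaged 188 ± 11.7 FPKM in Rbbp4KO and 142 ± 5.45 FPKM in Rbbp4F/F, and Srsf6 averaged 101 ± 11.4 FPKM in Rbbp4KO and 74.1 ± 2.06 FPKM in Rbbp4F/F (SD, n = 3 each). Both were called higher. The Srsf3 call was lost under the upper-quartile setting, at a limma adjusted p of 0.179, and with a loess correction for GC content and length its difference of 0.40 became −0.02. The Srsf6 call was lost with upper-quartile and median-ratio scaling (0.189 and 0.0651). Srsf9 was the lone SR gene called lower, with 81.7, 75.0 and 61.1 FPKM in Rbbp4KO and 95.5, 93.1 and 94.5 FPKM in Rbbp4F/F (−0.38, limma adjusted p = 0.0216). Its call was lost without any 1 of the Rbbp4F/F libraries, at adjusted p of 0.0594 to 0.0708, and under the equal-sum scaling at 0.0851.

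The remaining 4 SR genes were not called. Srsf5, whose transcript changes quickly on growth stimulation, had 171, 226 and 239.9 FPKM in Rbbp4KO and 157, 171 and 169 FPKM in Rbbp4F/F, a difference of 0.34 (limma adjusted p = 0.0587). Here Rbbp4KO replicate 1 lay beside the Rbbp4F/F libraries, and without it the difference was 0.49 and was called. Srsf10, an SR-like protein that represses splicing when dephosphorylated, likewise had 29.0, 40.9 and 47.6 FPKM in Rbbp4KO and 26.2, 30.5 and 28.1 FPKM in Rbbp4F/F. Srsf4 and Srsf7 differed by 0.03 and 0.04, and antisense exons of Gm12992 cover 43.0% of Srsf4. No source used here says if reads were counted by strand, and without strand such overlapping genes cannot be told apart. The same holds for Srsf2, where antisense exons of Mettl23 and Mfsd11 cover 25.3%.

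**Figure D2:**
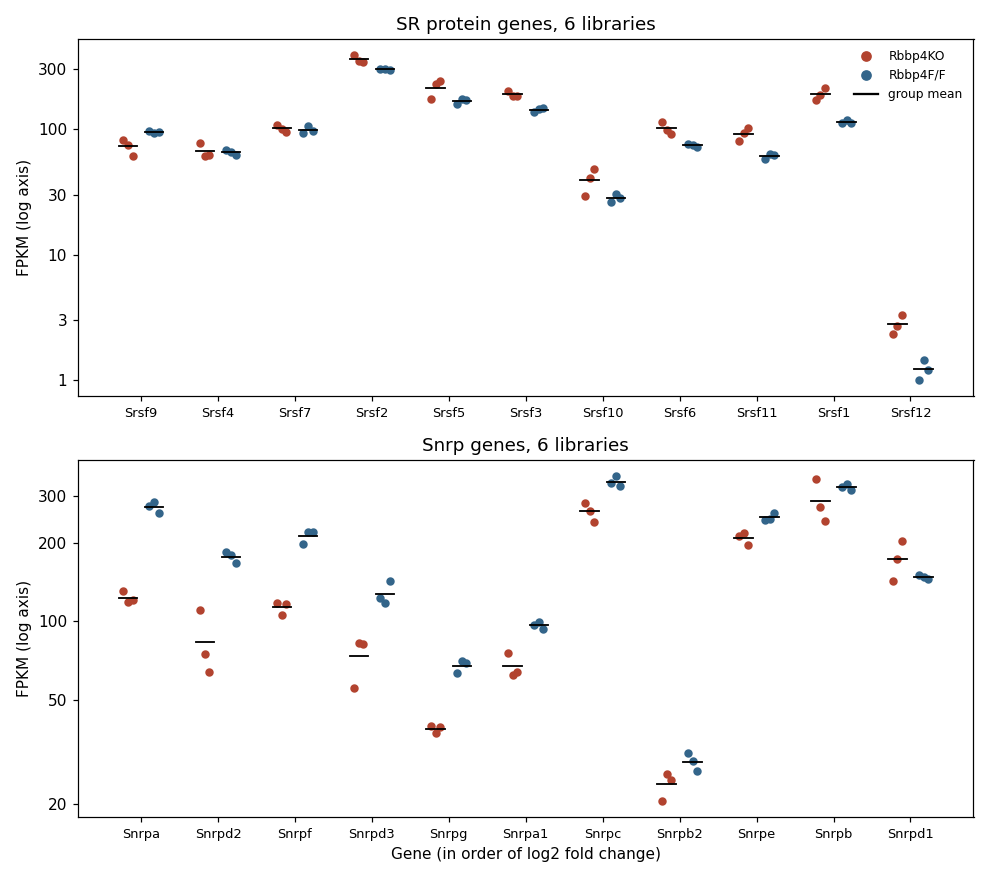
FPKM of the 11 SR genes (top) and 11 Snrp genes (bottom) in each library on a log axis, Rbbp4KO in red and Rbbp4F/F in blue, genes in order of log2 fold change and lines at group means of 3 libraries. Rbbp4KO libraries lie above all Rbbp4F/F libraries in 7 SR genes and 0 Snrp genes, and below all of them in 1 SR gene and 9 Snrp genes. Among all genes tested 41.3% lay above and 25.5% below in this way.

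The Snrp family encodes the Sm ring and the proteins particular to U1 and U2. Snrpa, the A protein of U1 that binds a stem-loop of U1 snRNA, had the smallest adjusted p of the 77. It had 131, 118 and 121 FPKM in Rbbp4KO and 275, 286 and 259 FPKM in Rbbp4F/F. No library came near the other group; the log2 fold change was −1.15 ± 0.08 (SE, limma adjusted p = 6.22e-05), with 11% of the gene under antisense exons of BC024978. Snrpa1, the A′ protein of U2, averaged 67.5 ± 7.38 FPKM in Rbbp4KO and 96.9 ± 3.02 FPKM in Rbbp4F/F (SD, n = 3 each) and was lower by limma. Snrpb2, its partner B″, averaged 23.8 ± 2.83 FPKM in Rbbp4KO and 29.1 ± 2.31 FPKM in Rbbp4F/F (SD, n = 3 each), a difference that was not called (limma adjusted p = 0.0692). Snrpc, the C protein of U1 that stabilises pairing at the 5′ splice site and with Snrpb the most abundant Snrp gene, had 284, 265 and 241 FPKM in Rbbp4KO and 339, 359.0 and 329 FPKM in Rbbp4F/F, and fell by 0.38 on the log2 scale (limma adjusted p = 0.00704).

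The 7 genes of the Sm ring (Snrpb, Snrpd1, Snrpd2, Snrpd3, Snrpe, Snrpf and Snrpg), whose products assemble around the snRNAs in equal numbers, did not shift equally. By limma 5 were lower and 0 higher, also 0 at an unadjusted p under 0.05, against 22.5% lower and 36.7% higher among all genes tested. The sums of the 7 genes were 978.0 ± 44.7 FPKM in Rbbp4KO and 1308.3 ± 16.6 FPKM in Rbbp4F/F (SD, n = 3 each). Snrpd2 had 110.3, 75.2 and 64.1 FPKM in Rbbp4KO and 183, 179 and 168 FPKM in Rbbp4F/F, which is a difference of −1.11 ± 0.19 (SE, limma adjusted p = 0.00218) on the log2 scale. Rbbp4KO replicate 1 was the nearest to the Rbbp4F/F libraries but still well below them. Snrpf had 118, 106 and 116 FPKM in Rbbp4KO and 198, 219 and 220.2 FPKM in Rbbp4F/F (−0.90, limma adjusted p = 0.000158). Antisense exons of Ccdc38 and 4933408J17Rik cover 85.4% of Snrpf, so its value holds any reads of those genes as well unless strand was used.

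Snrpd3 averaged 73.4 ± 15.6 FPKM in Rbbp4KO and 127.5 ± 13.0 FPKM in Rbbp4F/F, and Snrpg averaged 38.9 ± 1.44 FPKM in Rbbp4KO and 67.6 ± 3.72 FPKM in Rbbp4F/F (SD, n = 3 each). Both were lower by limma, by 0.81 and 0.78 on the log2 scale. Snrpe averaged 208 ± 11.4 FPKM in Rbbp4KO and 249 ± 8.80 FPKM in Rbbp4F/F (SD, n = 3 each) and was called lower, a call lost in some scalings and without any 1 of the Rbbp4F/F libraries (adjusted p of 0.0519 to 0.0659). Snrpb and Snrpd1 were not called. Snrpb, at 350.1, 273 and 242 FPKM in Rbbp4KO and 327, 336 and 317 FPKM in Rbbp4F/F, had its Rbbp4KO replicate 1 above and replicates 2 and 3 below all Rbbp4F/F libraries (−0.20, limma adjusted p = 0.239). Snrpd1, with 143, 173 and 203 FPKM in Rbbp4KO and 150.4, 148 and 145 FPKM in Rbbp4F/F, was the lone Snrp gene with a positive difference, 0.21 (limma adjusted p = 0.184). Without Rbbp4KO replicate 1 both were called in opposite directions, Snrpb at −0.35 and Snrpd1 at 0.34.

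The Sf3a and Sf3b genes encode the U2 subcomplexes that hold the branch site, and their products are recovered together in fixed complexes. Sf3b1, the large scaffold around the branch helix, had 65.0, 73.7 and 81.8 FPKM in Rbbp4KO and 37.9, 39.1 and 40.7 FPKM in Rbbp4F/F. The groups lay far apart (0.88 ± 0.10, SE, limma adjusted p = 0.0004). Sf3b3, a β-propeller protein of the same complex, had 209, 162 and 159 FPKM in Rbbp4KO and 118, 119.9 and 106 FPKM in Rbbp4F/F (0.61, limma adjusted p = 0.00448). Sf3b4 (SAP49) had 196, 197 and 188 FPKM in Rbbp4KO and 145, 155 and 134 FPKM in Rbbp4F/F (0.42, limma adjusted p = 0.00292). Under upper-quartile scaling the Sf3b3 and Sf3b4 calls were lost, at adjusted p of 0.051 and 0.136.

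The small subunits of the same complex went the other way. Sf3b5 had 24.0, 23.2 and 19.8 FPKM in Rbbp4KO and 37.4, 37.5 and 36.4 FPKM in Rbbp4F/F, and fell by 0.71 on the log2 scale (limma adjusted p = 0.00084). Sf3b6, which contacts the branch adenosine, had 41.4, 45.1 and 50.5 FPKM in Rbbp4KO and 62.0, 61.9 and 63.0 FPKM in Rbbp4F/F (−0.44, limma adjusted p = 0.00482). Both calls and that of Sf3b1 were kept in all 16 alternatives. Sf3b2, the partner of Sf3b4, had 174, 164 and 161 FPKM in Rbbp4KO and 155, 155 and 149.8 FPKM in Rbbp4F/F; these did not overlap but were not called (0.12, limma adjusted p = 0.16). The 3 Sf3a genes were not called, with differences of −0.06 to 0.14.

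The promoter sequences of the most negative Snrp changes (Snrpa and Snrpd2), of the most raised abundant SR gene (Srsf1) and of an SF3b pair that changed in opposite directions are shown to let their composition be compared. They run from 250 bases before to 50 bases after the RefSeq gene start on build GRCm38.p6, read 5′ to 3′ on the gene's strand. RefSeq promoters were found for 66 of the 77 genes. Capitals mark every match, on either strand, to CCAAT (the NF-Y box), CCGGAAG (an ETS core), CACGTG (the E-box core), TTCGCGC (an E2F-like core) and GCATGCGC (the NRF-1 core).
Snrpa (chr7:27196222-27196521, minus strand): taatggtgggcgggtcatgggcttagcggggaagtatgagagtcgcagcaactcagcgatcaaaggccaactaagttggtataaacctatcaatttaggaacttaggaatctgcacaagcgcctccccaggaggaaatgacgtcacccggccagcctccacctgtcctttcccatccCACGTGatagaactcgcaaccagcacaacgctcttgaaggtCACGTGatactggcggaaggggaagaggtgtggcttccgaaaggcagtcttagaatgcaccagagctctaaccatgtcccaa
Snrpd2 (chr7:19149588-19149887, plus strand): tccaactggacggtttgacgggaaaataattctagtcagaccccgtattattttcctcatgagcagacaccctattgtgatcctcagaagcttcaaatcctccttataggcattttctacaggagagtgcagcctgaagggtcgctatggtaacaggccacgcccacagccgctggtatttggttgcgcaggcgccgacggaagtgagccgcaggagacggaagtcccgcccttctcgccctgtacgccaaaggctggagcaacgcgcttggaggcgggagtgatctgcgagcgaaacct
Srsf1 (chr11:88047123-88047422, plus strand): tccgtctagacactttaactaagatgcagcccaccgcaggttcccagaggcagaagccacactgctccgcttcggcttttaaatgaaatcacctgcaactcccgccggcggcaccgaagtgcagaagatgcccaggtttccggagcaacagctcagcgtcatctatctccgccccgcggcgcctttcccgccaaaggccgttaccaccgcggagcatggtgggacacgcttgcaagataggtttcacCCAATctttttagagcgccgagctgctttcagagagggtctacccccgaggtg
Sf3b3 (chr8:110846754-110847053, minus strand): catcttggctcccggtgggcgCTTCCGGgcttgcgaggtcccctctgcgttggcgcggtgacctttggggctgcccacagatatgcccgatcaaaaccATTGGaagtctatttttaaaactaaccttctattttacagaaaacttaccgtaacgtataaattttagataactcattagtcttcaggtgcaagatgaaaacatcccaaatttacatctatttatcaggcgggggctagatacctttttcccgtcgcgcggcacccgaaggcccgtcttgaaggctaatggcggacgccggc
Sf3b6 (chr12:4817358-4817657, plus strand): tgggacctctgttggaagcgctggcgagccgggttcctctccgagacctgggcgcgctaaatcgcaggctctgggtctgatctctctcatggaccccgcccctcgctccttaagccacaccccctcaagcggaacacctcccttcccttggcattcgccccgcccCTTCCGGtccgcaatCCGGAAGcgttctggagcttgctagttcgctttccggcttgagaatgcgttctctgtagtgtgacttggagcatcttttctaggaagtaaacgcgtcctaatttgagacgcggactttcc

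The Snrpa promoter holds CACGTG at 2 places, Srsf1 a CCAAT that spans the start, Sf3b6 CCGGAAG in both orientations next to each other, and Sf3b3 CCGGAAG and CCAAT; the Snrpd2 promoter matches none of the 5 motifs. CCGGAAG was in 30.3% of the 66 promoters and in 8.86% of all 32851 RefSeq promoters of this length. By family it was in 6 of 7 Sf3a and Sf3b promoters, 4 of 9 Snrp, 4 of 11 Srsf, 3 of 11 Prpf, 2 of 18 hnRNP and 1 of 10 Lsm promoters. CCAAT was in 48.5% of the 66 and 37.4% of all promoters, and in 12 of 18 hnRNP promoters. CACGTG was in 12.1% of the 66 and 7.15% of all promoters, TTCGCGC in 9.09% and 1.59%, and GCATGCGC in 6.06% and 2.71%. CCGGAAG was in 4 of the 19 promoters of genes called higher and in 5 of the 19 of genes called lower, and CCAAT was in 7 and 11 of them. These are letter matches, not binding sites, and the motifs were chosen with the changes known. For each member the RefSeq promoter nearest to its gene start was taken. The 32851 promoters were not filtered for expression or gene type, and some genes have several among them. The 2 sets are therefore unlike, and no share was taken for expressed genes alone. Whether the differences are particular to splicing genes was not tested.

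The Prpf genes, many of them tri-snRNP or U1 proteins, had the largest positive changes of the set. Prpf39, a U1-associated protein, had 8.57, 8.67 and 12.5 FPKM in Rbbp4KO and 2.95, 2.45 and 4.97 FPKM in Rbbp4F/F. Levels were low but did not overlap, and the log2 fold change was 1.31 ± 0.24 (SE, limma adjusted p = 0.00334). Prpf4b, a kinase of tri-snRNP proteins, had 18.9, 23.3 and 28.9 FPKM in Rbbp4KO and 11.01, 9.11 and 9.95 FPKM in Rbbp4F/F (1.15, limma adjusted p = 0.00106). Prpf38a, needed to activate the spliceosome, had 73.0, 83.2 and 83.9 FPKM in Rbbp4KO and 40.8, 44.0 and 40.4 FPKM in Rbbp4F/F (0.92, limma adjusted p = 0.000191). Prpf3 of U4/U6, Prpf6 of U5 and Prpf38b were also higher, by 0.58, 0.48 and 0.58. All 6 of these calls were kept in all 16 alternatives.

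Prpf40b was the lone Prpf gene called lower and had the most negative change of the 77. It encodes a U1-associated protein, with 25.6, 17.6 and 16.4 FPKM in Rbbp4KO and 47.8, 46.1 and 43.0 FPKM in Rbbp4F/F (−1.18 ± 0.16, SE, limma adjusted p = 0.000939). The 2 most abundant Prpf genes were not called. Prpf19, the ubiquitin ligase of the activating complex, had 173, 148 and 147 FPKM in Rbbp4KO and 177, 182 and 169.9 FPKM in Rbbp4F/F (−0.18, limma adjusted p = 0.11). Prpf8, the scaffold of the catalytic centre, had 156, 136 and 133 FPKM in Rbbp4KO and 129.6, 135 and 127 FPKM in Rbbp4F/F (0.11, limma adjusted p = 0.268). Prpf4 and Prpf31 of U4/U6 and Prpf18 of the second step differed by −0.02, −0.20 and −0.12 and were not called, with antisense exons over 18.1% of Prpf31.

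The Lsm genes encode the U6 ring, the cytoplasmic decay ring and their relatives. In the nuclear ring of LSm2 to LSm8, which caps U6 snRNA, 4 of 7 genes were lower, 1 was higher and 2 were not called. Over all genes tested 22.5% were lower and 36.7% higher. The ring summed to 755.8 ± 73.1 FPKM in Rbbp4KO and 981.1 ± 43.6 FPKM in Rbbp4F/F (SD, n = 3 each). Lsm2 had 97.9, 102 and 99.1 FPKM in Rbbp4KO and 171, 176 and 150.5 FPKM in Rbbp4F/F (−0.73, limma adjusted p = 0.000394). Lsm4 had 177, 127 and 131 FPKM in Rbbp4KO and 211, 211 and 202 FPKM in Rbbp4F/F (−0.54, limma adjusted p = 0.0108). Lsm7, the most abundant of the family, had 210.0, 183 and 126 FPKM in Rbbp4KO and 246, 319.97 and 299 FPKM in Rbbp4F/F. The groups did not overlap but spread widely (−0.76, limma adjusted p = 0.0138), and the call was lost without Rbbp4F/F replicate 2 or 3, at adjusted p of 0.0529 and 0.0509. Lsm3, at 210.2, 185 and 182 FPKM in Rbbp4KO and 159, 164 and 156 FPKM in Rbbp4F/F, had a positive difference of 0.26 (limma adjusted p = 0.0237) that was near the median of all genes and was −0.001 with upper-quartile scaling. Lsm5 fell by 0.28. Without any 1 of the Rbbp4F/F libraries the Lsm3 call was lost, at adjusted p of 0.0569 to 0.0817, and the Lsm5 call without replicate 1 or 3, at 0.0544 and 0.0584.

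Outside the U6 ring, Lsm14a and its paralog Lsm14b, translational repressors of P-bodies, moved in opposite directions. Lsm14a had 77.4, 77.1 and 82.3 FPKM in Rbbp4KO and 48.5, 51.2 and 52.2 FPKM in Rbbp4F/F (0.63 ± 0.07, SE, limma adjusted p = 0.000407). Lsm14b had 29.3, 28.5 and 26.2 FPKM in Rbbp4KO and 49.99, 42.6 and 55.1 FPKM in Rbbp4F/F (−0.79 ± 0.11, SE, limma adjusted p = 0.00105). In both genes the groups were clear of each other, and both calls were kept in all 16 alternatives. Lsm12, a further LSm-domain protein, fell by 0.29 (limma adjusted p = 0.0138), a call lost with equal FPKM sums (0.182), as was that of Lsm5 (0.229), and without Rbbp4KO replicate 2 or Rbbp4F/F replicate 1 or 2. Lsm1 of the decay ring and Lsm10 and Lsm11 of U7 were not called, with differences of 0.27, −0.25 and 0.38.

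The hnRNP genes hold the most abundant transcripts of the set, and 12 of 20 were not called. Hnrnpa1, a splicing silencer that binds UAG-containing motifs, was the most abundant, with 621, 628 and 643 FPKM in Rbbp4KO and 942, 956 and 896 FPKM in Rbbp4F/F. No Rbbp4KO library reached the lowest Rbbp4F/F library (−0.56 ± 0.07, SE, limma adjusted p = 0.000544). Hnrnpa0, an intronless relative that binds AU-rich mRNAs, had 158, 150.3 and 146 FPKM in Rbbp4KO and 251, 245 and 226 FPKM in Rbbp4F/F (−0.66, limma adjusted p = 0.000381). Hnrnpab, the next most abundant, had 535.0, 645 and 693 FPKM in Rbbp4KO and 917, 775.0 and 677 FPKM in Rbbp4F/F, and these groups overlapped (−0.34, limma adjusted p = 0.0796); antisense exons of Phykpl cover 29.1% of it. Hnrnpa2b1, Hnrnpa3 and Hnrnpc differed by −0.09, −0.14 and −0.17 and were not called, though the Hnrnpc groups did not overlap, with Rbbp4KO below.

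Hnrnph1, which binds runs of G and was the most raised hnRNP gene, had 192, 226 and 311 FPKM in Rbbp4KO and 117, 129 and 125 FPKM in Rbbp4F/F (0.95 ± 0.17, SE, limma adjusted p = 0.00281). The Rbbp4KO libraries spread far above the tight Rbbp4F/F ones. Hnrnpdl, a paralog of the AU-binding Hnrnpd, had 83.7, 86.4 and 91.3 FPKM in Rbbp4KO and 50.9, 55.9 and 59.4 FPKM in Rbbp4F/F (0.65, limma adjusted p = 0.000721). Hnrnpll, known for exon skipping of CD45 in mouse lymphocytes, had 38.3, 41.5 and 41.4 FPKM in Rbbp4KO and 29.3, 29.4 and 28.2 FPKM in Rbbp4F/F (0.47, limma adjusted p = 0.00191, against 0.0536 with upper-quartile scaling). With the loess correction the Hnrnpll difference was 0.12 and was not called (limma adjusted p = 0.2). Its paralog Hnrnpl, which binds CA repeats, was lower, with 348, 265 and 253 FPKM in Rbbp4KO and 369.6, 379 and 368 FPKM in Rbbp4F/F (−0.38, limma adjusted p = 0.033). That call was lost without any library except Rbbp4KO replicate 1, at adjusted p of 0.0815 to 0.11. Hnrnph3 was called higher at an adjusted p of 0.0482 by limma and lost that call without any library except Rbbp4KO replicate 2, at 0.0677 to 0.13; with the loess correction its difference turned to −0.06. Hnrnpul1 averaged 65.1 ± 1.96 FPKM in Rbbp4KO and 80.0 ± 1.91 FPKM in Rbbp4F/F (SD, n = 3 each) and was lower, at a limma adjusted p of 0.00783 that became 0.131 with equal FPKM sums.

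Hnrnpk, Hnrnpf and Hnrnpu, also abundant, overlapped between the groups and were not called. Hnrnpk, which binds C-rich tracts, averaged 482 ± 44.7 FPKM in Rbbp4KO and 442 ± 9.91 FPKM in Rbbp4F/F (SD, n = 3 each), with replicate 1 of Rbbp4KO the lowest of all 6 libraries. Hnrnpf, a relative of Hnrnph1, averaged 436 ± 26.2 FPKM in Rbbp4KO and 457 ± 10.2 FPKM in Rbbp4F/F (SD, n = 3 each), with 26.5% of it under antisense exons. Hnrnpu, a nuclear scaffold protein, had 296, 315 and 349 FPKM in Rbbp4KO and 318, 332 and 282 FPKM in Rbbp4F/F. Hnrnpd, Hnrnpm, Hnrnpr, Hnrnph2 and Hnrnpul2 differed by 0.05 to 0.15 on the log2 scale, and none was called. Of these, Hnrnpul2 alone had groups that did not overlap, with Rbbp4KO above. Exons of a neighbour on the same strand cover 14.7% of Hnrnpm.

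Because scaling multiplies all genes of a library alike, the ratio between 2 genes of a library is free of it, and 9 pairs of paralogs or alternative subunits were compared in this way after their values were seen. Rbbp4KO was above Rbbp4F/F without overlap in 3 pairs, below it in 5, and overlapped in 1. Among single genes tested 41.3% lay above and 25.5% below without overlap. No such share was taken for other pairs of genes, so the count does not set these pairs apart. Lsm14a over Lsm14b was 2.64, 2.71 and 3.14 in Rbbp4KO and 0.971, 1.2 and 0.947 in Rbbp4F/F. Hnrnph1 over Hnrnph2 averaged 7.19 ± 1.23 in Rbbp4KO and 3.82 ± 0.195 in Rbbp4F/F (SD, n = 3 each), and Srsf3 over Srsf7 averaged 1.87 ± 0.0428 in Rbbp4KO and 1.46 ± 0.0838 in Rbbp4F/F (SD, n = 3 each).

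The 5 pairs with a lower ratio in Rbbp4KO were Snrpa over Snrpb2, at 5.25 ± 0.960 in Rbbp4KO and 9.42 ± 0.544 in Rbbp4F/F (SD, n = 3 each), Hnrnpl over Hnrnpll, at 7.20 ± 1.64 in Rbbp4KO and 12.9 ± 0.236 in Rbbp4F/F (SD, n = 3 each), Hnrnpd over Hnrnpdl, Hnrnpul1 over Hnrnpul2 and Hnrnpa1 over Hnrnpa2b1. The last ratio averaged 1.47 in Rbbp4KO and 2.03 in Rbbp4F/F. Lsm1 over Lsm8, the subunits that set the cytoplasmic ring apart from the nuclear one, was 0.289 to 0.396 in Rbbp4KO and 0.231 to 0.295 in Rbbp4F/F and overlapped. No p is given for these ratios.

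**Figure D3:**
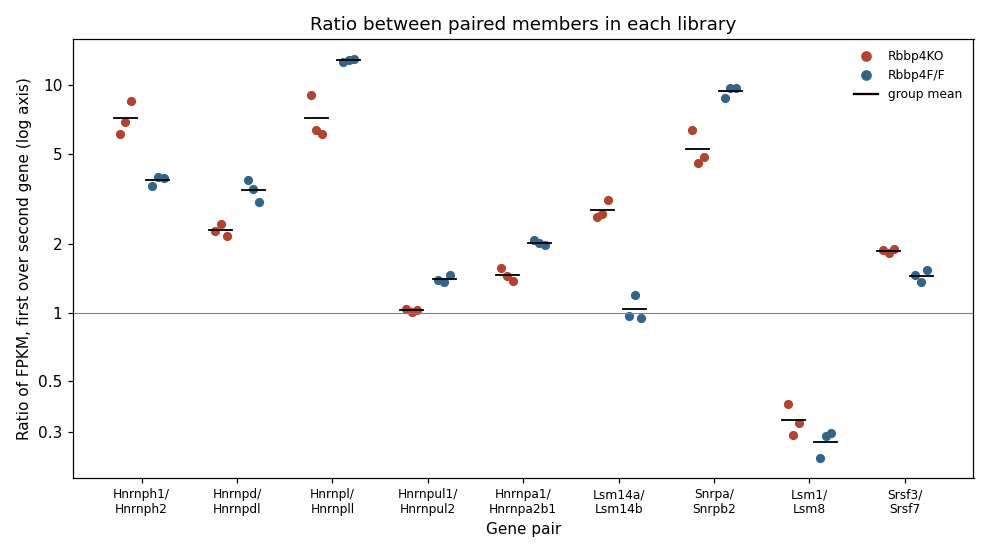
Ratio of FPKM between the genes of each of 9 pairs, in each library (Rbbp4KO red, left; Rbbp4F/F blue, right) on a log axis, with lines at group means of 3 libraries. The groups do not overlap in 8 pairs, and Lsm14a over Lsm14b lies between 2.64 and 3.14 in Rbbp4KO and between 0.947 and 1.2 in Rbbp4F/F. The pairs were picked after values were seen. Among single genes tested 41.3% lay above and 25.5% below without overlap, and no share was taken for other pairs.

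Several members have near-identical processed copies elsewhere in the genome, and reads could be split between gene and copy in counting. Copies were sought with at least 95% identity over at least 50% of the coding sequence. Snrpg has a copy, Gm8186 on chromosome 17, that holds most of their summed FPKM: the copy averaged 265 FPKM in Rbbp4KO and 373 FPKM in Rbbp4F/F, and gene and copies together 312, 324 and 275 FPKM in Rbbp4KO and 456.0, 441 and 426 FPKM in Rbbp4F/F, a ratio of means of 0.688. Lsm7 with Gm10146 and Snrpf with Gm13092 had ratios of 0.672 and 0.556 when summed, so each of these 3 genes had a lower mean in Rbbp4KO than in Rbbp4F/F with and without its copies. Hnrnpa3 with its copies had 567, 649 and 767 FPKM in Rbbp4KO and 783, 775 and 762 FPKM in Rbbp4F/F, and overlapped. The value of such a gene on its own is uncertain.

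**Figure D4:**
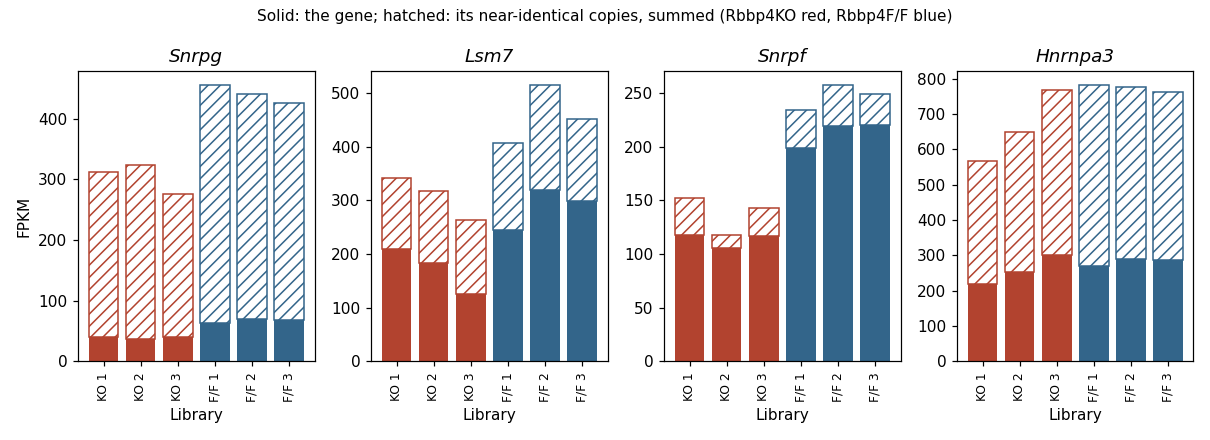
FPKM of 4 genes (solid) and of their near-identical copies summed (hatched) in each library, Rbbp4KO in red and Rbbp4F/F in blue. For Snrpg most of the total lies in the copies, and the totals of Snrpg, Lsm7 and Snrpf are lower in each Rbbp4KO library than in any Rbbp4F/F library.

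Spearman's rho across the 77 genes between transcript length and log2 fold change was 0.41, and 0.105 across the 13158 tested genes with a transcript; for GC content the values were −0.354 and −0.139. Genes are not independent replicates, and no p is given. Of the 15 members with transcripts under 1 kb, 9 were lower and 1 was higher, at a median of −0.28, against a median of 0.03 for all genes of that length, of which 26.9% were lower. Of the 10 members of 4 kb and over, 3 were higher and 0 lower by limma, against 41.0% and 18% of all genes of that length. Snrp and Lsm genes have the shortest transcripts, at medians of 1161 and 870.0 bases, and Prpf genes the longest at 3048 bases. After a loess correction for GC content and length, added after the data were seen, 30.2% of all genes were higher and 31.5% lower. In that fit 10 of the 11 Snrp genes were lower and 0 higher, 6 Prpf genes were higher and 5 lower, and 2 hnRNP genes were higher and 11 lower. For SR genes 5 were higher and 1 lower, and their median relative to all genes was 0.07, against 0.23 without the correction. The part of length in the changes was otherwise not tested.

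**Figure D5:**
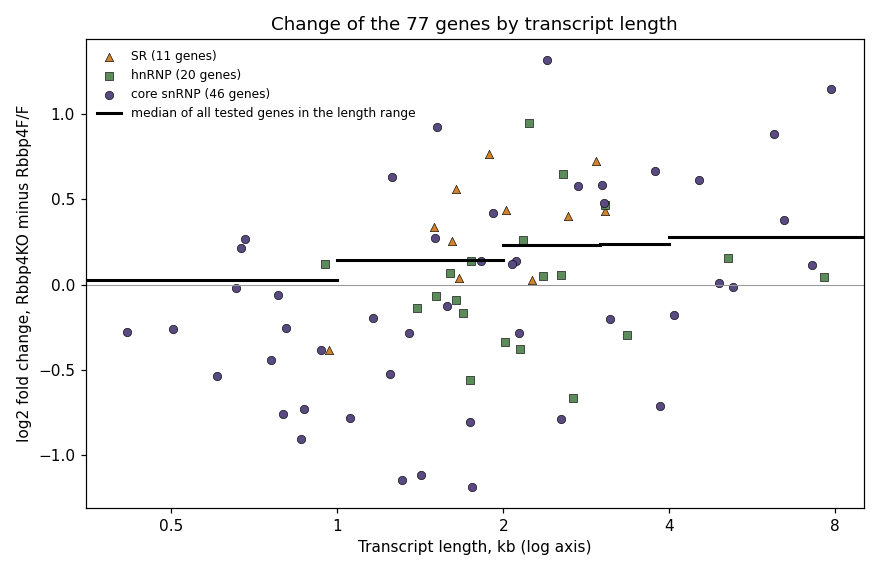
Log2 fold change of the 77 genes, Rbbp4KO minus Rbbp4F/F, against transcript length in kb on a log axis, by class, with lines at the median of all tested genes of each length range. Members under 1 kb lie mostly below the line for their length range, whose height is 0.03.

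Rbbp4KO replicate 1, which also had the highest Rbbp4 level of its group, lay nearest to the Rbbp4F/F mean in 24 of the 43 called members, or 55.8%, and in 55.0% of the 8029 genes called in all. The median SD of log2(FPKM + 1) over the 77 genes was 0.132 in Rbbp4KO and 0.0653 in Rbbp4F/F, and 56 of the 77 had the larger SD in Rbbp4KO, as did 9377 of all 13579 genes tested, whose median SD was 0.19 in Rbbp4KO and 0.113 in Rbbp4F/F. Without replicate 1, 9 members became called that were not before, among them Snrpb, Snrpd1, Srsf5 and Srsf10. Calls rose over all genes as well. The share called in either direction went from 55.8% to 66.2% of members and from 59.1% to 65.4% of all genes tested. Of the 43 calls, 13 of 21 higher and 15 of 22 lower were kept in all alternatives in which the gene was tested. The 13 are Srsf1, Srsf11, Srsf12, Hnrnpdl, Hnrnph1, Sf3b1, Lsm14a and the 6 Prpf genes, and the 15 are Hnrnpa0, Hnrnpa1, Sf3b5, Sf3b6, Prpf40b, Lsm2, Lsm4, Lsm14b and the Snrp genes called lower other than Snrpe.

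The rest of the pathway was read from lists of genes that, apart from Lsm10 and Lsm11, the names above do not take, and their counts are given for the values as deposited alone. Of 55 other spliceosome genes 26 were higher and 6 lower by limma, against 36.7% and 22.5% of all genes tested. Their median log2 fold change was 0.20, near that of all genes. Dhx38, a helicase that acts between the catalytic steps, averaged 54.4 FPKM in Rbbp4KO and 28.1 FPKM in Rbbp4F/F, and Luc7l, a U1-associated protein, averaged 85.2 FPKM in Rbbp4KO and 46.1 FPKM in Rbbp4F/F. Snw1, part of the catalytic spliceosome, was higher too, with 44.2% of it under antisense exons of Slirp. Snrnp70, the U1-70K protein, had 227, 176 and 188 FPKM in Rbbp4KO and 322, 311 and 359.8 FPKM in Rbbp4F/F, and was lower like Snrpa and Snrpc of the same particle. Aqr and Eftud2, a helicase and a U5 GTPase, were lower too, with 26.9% of Eftud2 under antisense exons.

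Of 58 tested splicing regulators outside the SR and hnRNP names 28 were higher and 14 lower, against 36.7% and 22.5% of all genes tested. The SR protein kinases Clk4 and Clk3 led the higher ones. Clk4 had 36.5, 35.8 and 42.6 FPKM in Rbbp4KO and 9.24, 9.19 and 9.23 FPKM in Rbbp4F/F, with no library between the groups (limma adjusted p = 3.43e-05). Clk3 had 74.7, 70.8 and 79.7 FPKM in Rbbp4KO and 37.3, 36.7 and 36.2 FPKM in Rbbp4F/F, and Casc3, a core part of the exon junction complex, was higher as well. Nova2, Pcbp2 and Raly, which are RNA-binding proteins of neurons, of C-rich tracts and of the hnRNP C family, led the lower ones, with 31.7% and 32.7% of Nova2 and Pcbp2 under antisense exons. Of 19 genes for snRNP assembly 8 were higher and 5 lower: Ddx20, Coil and Phax were the most firmly higher, and Gemin4, Gemin7 and Clns1a the most firmly lower, with antisense exons over 78.5% of Gemin4. Of 9 tested genes of U7 and histone mRNA end formation, which include Lsm10 and Lsm11, 3 were higher and 1 lower, and of 10 genes of cytoplasmic mRNA decay 6 were higher and 0 lower, all by limma with p adjusted over all genes tested. No decay gene was lower at an unadjusted p under 0.05 either. The assembly, U7 and decay counts stand beside the same shares of all genes tested, 36.7% higher and 22.5% lower.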

How the data were processed

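RNA-seq of 6 libraries was analysed, with 52872 rows per file, of which 2 hold no gene identifier and were left out. Per the submitters' processing notes, build GRCm38.p6 and the tools RSEM, HISAT2 2.1.0, DESeq 1.26.0 and FastQC were used, in roles left unstated. The values the authors deposited were taken to be FPKM, because the deposited values are not whole and their sums differ between libraries, at 697933 to 800146. FPKM depends on the library total, so a change of abundant transcripts moves the rest. The annotation, the mapping options and strand use: not given in the sources used here. Low values lay within 0.15 of whole steps in 88.8% to 92.3% of cases, which gave the depth estimates; counts were not recovered, so the count test allowed for in the design was not used. GENCODE M21 matched 51719 of 51912 Ensembl identifiers.

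The 13579 genes that reached 1 FPKM in 3 or more libraries were fitted by limma 3.58.1 (R 4.3.3) on values of log2(FPKM + 1), two-sided (eBayes with a mean trend, group as the lone term, Benjamini-Hochberg over all tested genes, threshold 0.05), after a check on simulated data. The log2(FPKM + 1) scale understates changes of low genes. Alternatives changed scaling, pseudocount, filter, block, gene set and libraries. Per-library values are given, within each family, for up to 3 called genes with the largest and the smallest change and the 2 most abundant; for other lists, up to 3 genes by p in each direction. Members and lists were chosen with earlier results of these data known. The pairs, motifs, promoters shown, copy criteria, length correction and the gene set of the median-ratio scaling (genes passing the filter) were chosen after values were seen, as were members named outside the rule. The values of 1 member are not reported here.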

Additional observations from a re-analysis of the deposited data

How the results depend on the processing

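Of 43 calls, 28 were kept in all 16 alternatives that tested the gene. Scaling and the loess correction moved counts. With upper-quartile scaling 13 members were higher and 36 lower (3 higher in the SR class; 2 higher and 9 lower in hnRNP; 26 lower in core snRNP). With equal FPKM sums 34 were higher (0 lower in SR; 8 higher and 2 lower in hnRNP; 17 higher in core snRNP). Without the 20 most abundant genes in the totals, 0 SR and 2 hnRNP genes were lower and 17 core genes higher. Median-ratio scaling gave 9 lower hnRNP genes, and the loess correction 35 lower members, with 2 hnRNP genes higher and 11 lower. Ratios of summed FPKM with median-ratio, upper-quartile, equal-sum and reduced-total scaling were 1.087, 1.033, 1.389 and 1.351 for SR, 0.7921, 0.7525, 1.013 and 0.9861 for hnRNP, and 0.7634, 0.7258, 0.974 and 0.9479 for core snRNP genes. Upper-quartile scaling turned Lsm3 to −0.001 and Srsf2 to −0.009. The cause of shifts was not tested beyond the scaling itself. Leaving out 1 library gave 18 to 26 higher members (23.4% to 33.8%) and 17 to 25 lower ones (22.1% to 32.5%). In the same fits 29.9% to 39.9% of all genes tested were higher and 17.2% to 25.6% lower, so counts of members and of all genes moved together. By class, 5 to 8 SR genes were higher and 0 to 1 lower, 3 to 5 hnRNP genes higher and 3 to 4 lower, 10 to 13 core genes higher and 14 to 20 lower, and 0 to 1 Snrp genes higher and 7 to 9 lower. Replicate numbers did not pair the libraries (correlations of −0.001, −0.009 and 0.049), and with the replicate block 23 members were higher and 22 lower, 8 and 1 in the SR class. Arm sizes of 3 libraries limit precision, and no depth-based interval was possible from FPKM.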
